A study of Mus musculus with 25 samples.

Results

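The pyruvate dehydrogenase complex, its kinases and phosphatases and the mitochondrial pyruvate carrier were followed through 10 genes, namely Mpc1, Pdha1, Pdhb, Dlat, Pdk1, Pdk2, Pdk3, Pdk4, Pdp1 and Pdp2. They were taken by name, as the 23 probes that carry one of these gene names in the scanner files. All 23 probes passed the filter on dim spots, and the genes are 10 of the 25908 tested. Pyruvate made in the cytosol by glycolysis enters mitochondria through the mitochondrial pyruvate carrier, of which Mpc1 is a subunit. The pyruvate dehydrogenase complex then converts it into acetyl-CoA, with an E1 enzyme built from Pdha1 and Pdhb, an E2 core of Dlat, and an E3 enzyme. Pyruvate dehydrogenase kinases (Pdk1 to Pdk4) phosphorylate E1 and switch it off, and pyruvate dehydrogenase phosphatases (Pdp1 and Pdp2) remove the phosphate. In fat, acetyl-CoA from this step leaves mitochondria as citrate and feeds fatty acid synthesis, and Pdk4 is known as the kinase that rises when tissues turn to fatty acids as fuel.

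Perigonadal white adipose tissue (pgWAT) of 25 mice was hybridised to single-colour Agilent mouse arrays, 1 array per mouse. The groups were ChREBPβ WT (7 arrays), ChREBPβ KO (6 arrays), total ChREBP WT (7 arrays) and, on 5 arrays, total ChREBP KO. The methods give ChREBPβ WT mice as littermates of ChREBPβ KO mice. ChREBPβ KO mice carried a CRISPR/Cas9 deletion of the exon particular to the β isoform of the glucose-responsive factor ChREBP, and total ChREBP KO mice lacked both its α and its β isoform. All mice were C57BL6/J males of an age not given in the sources used here, were kept on a regular diet, and had been fasted for 24 h and then refed for 18 h with food and 20% glucose in the water. Neither deficiency was limited to fat. The comparisons asked which transcripts change without the β isoform, which change when both isoforms are absent, and whether the effects differ. No group lacked the α isoform alone.

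Array by array, the median raw intensity was 84 to 127, and the local background was 15 to 22. Mlxipl, the targeted gene, had log2 levels of 15.64 to 16.28 in total ChREBP WT and 14.08 to 14.29 in total ChREBP KO, and of 14.70 to 15.43 in ChREBPβ WT and 14.02 to 14.70 in ChREBPβ KO. Where its probe lies relative to the deletions was not analysed here. All 12 adipocyte markers (Adipoq, Plin1 and others) were measured, with a mean log2 level of 15.87 to 16.32 on the 25 arrays. Markers of other organs differed between groups. The mean of 14 liver markers (Alb, Apoa1 and others) was 11.82 to 15.46 in ChREBPβ WT, 10.51 to 14.94 in ChREBPβ KO, 7.48 to 12.66 in total ChREBP WT and 7.37 to 8.31 in total ChREBP KO. The mean of 10 brown fat markers was 8.33 to 8.84, 8.78 to 9.12, 8.83 to 9.57 and 8.42 to 9.35 in the same order, and Ucp1, its defining gene, was well above background on 3 of 7, 6 of 6, 5 of 7 and 0 of 5 arrays. These values are set beside the results they touch.

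Start regions of 5 of the genes are shown first, since ChREBP is a DNA-binding factor. Its binding element, the carbohydrate response element, was searched in 1 form only, a CACGNG and a CNCGNG that lie 5 bases apart. RefSeq windows of the 250 bases before a transcript start (GRCm38.p6) were held for 9 of the 10 genes, in 12 windows, and none was held for Pdp1. This form of the whole element was in 0 of the 12 windows and in 0.280% of all 32851 windows. Other forms of it, and bases outside the windows, were not searched. The E-box CACGTG was in 2 of them, 1 of Pdk2 and 1 of Pdp2, against 6.02% of all windows. The looser CACGNG, which includes the E-box, was in 5 of 12 (Dlat, Mpc1, Pdk2, Pdk3 and Pdp2) against 23.5% of all windows. TGTTTAC, the FoxO type motif, was in 0 of 12 and in 3.17% of all windows. All motifs were searched on both strands, and a match is a description of letters, not of binding. Of the 5 windows printed here, chosen after the values were seen, Pdk1 is that of the largest fall, Pdha1 that of the catalytic subunit, Mpc1 that of the carrier, Pdk4 that of the only rise, and Pdk2 that of a kinase that holds the E-box. Pdk1, Pdk2 and Mpc1 have 2 windows each, of which the one with CACGNG is shown for Pdk2 and Mpc1, and the upstream one for Pdk1. Capitals mark CACGNG on either strand.
Pdk1 (chr2:71872974-71873223, plus strand): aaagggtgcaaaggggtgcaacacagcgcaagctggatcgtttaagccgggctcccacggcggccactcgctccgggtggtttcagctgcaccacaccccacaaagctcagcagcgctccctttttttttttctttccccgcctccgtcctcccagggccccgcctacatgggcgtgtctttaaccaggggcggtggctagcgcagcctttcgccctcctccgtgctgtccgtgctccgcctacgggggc
Pdha1 (chrX:160138431-160138680, minus strand): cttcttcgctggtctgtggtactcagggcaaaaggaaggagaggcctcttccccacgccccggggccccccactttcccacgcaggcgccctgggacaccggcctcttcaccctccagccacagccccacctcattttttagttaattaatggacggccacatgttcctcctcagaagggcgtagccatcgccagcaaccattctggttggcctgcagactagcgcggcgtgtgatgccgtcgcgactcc
Mpc1 (chr17:8284204-8284453, plus strand): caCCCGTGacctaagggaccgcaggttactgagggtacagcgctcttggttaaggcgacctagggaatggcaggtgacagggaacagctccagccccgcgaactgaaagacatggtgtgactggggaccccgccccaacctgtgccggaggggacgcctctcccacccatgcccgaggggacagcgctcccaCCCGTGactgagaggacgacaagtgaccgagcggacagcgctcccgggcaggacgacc
Pdk4 (chr6:5496279-5496528, minus strand): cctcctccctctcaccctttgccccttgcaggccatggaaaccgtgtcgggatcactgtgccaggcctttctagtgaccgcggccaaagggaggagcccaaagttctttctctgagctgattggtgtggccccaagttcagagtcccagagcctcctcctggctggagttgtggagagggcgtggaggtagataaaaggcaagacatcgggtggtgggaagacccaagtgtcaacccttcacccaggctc
Pdk2 (chr11:95041372-95041621, minus strand): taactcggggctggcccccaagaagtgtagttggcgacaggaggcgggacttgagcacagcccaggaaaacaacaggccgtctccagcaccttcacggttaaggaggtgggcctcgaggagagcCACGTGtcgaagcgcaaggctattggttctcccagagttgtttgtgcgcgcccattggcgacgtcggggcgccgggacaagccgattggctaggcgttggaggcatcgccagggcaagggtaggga
The windows of Pdk1, Pdha1 and Pdk4 held no CACGNG. That of Pdk2 held the E-box from base -126, counted back from the start, and that of Mpc1 held CACGNG from bases -248 and -58.

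A gene is described by its brightest kept probe, with its other probes afterwards. Levels are log2 median intensities after quantile normalisation, and the levels of different probes cannot be set against each other. Differences are limma estimates on the log2 scale with wash batch as a term, and a gene was called where the adjusted p (Benjamini-Hochberg over all 39619 probes) was under 0.05.

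In total ChREBP KO, the carrier subunit, the E1 and E2 genes of the complex and 1 of the 4 kinases fell, and 1 kinase rose. Of the 10 genes, 5 were lower (Pdk1, Pdha1, Pdhb, Mpc1 and Dlat) and 1 was higher (Pdk4). Over all genes tested, 9.36% were called in this comparison, 5.74% higher and 3.62% lower. The median difference of the 10 genes was -0.40, against 0.02 over all genes. For 6 of the 10 genes the ranges of KO and WT arrays were apart, against such separation in 7.58% of all genes.

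Mpc1, the carrier subunit (probe A_55_P2008422, chromosome 17, 8490447 to 8490506, mm9), had a lowest, median and highest log2 level of 16.45, 16.59 and 16.84 in total ChREBP WT. The 5 total ChREBP KO arrays were at 15.58, 15.70, 15.74, 15.74 and 16.14. All KO arrays thus lay below all WT arrays, with replicate 7 nearest to them. The difference was -0.82 (SE 0.10, limma adjusted p 4.01e-06), a 1.76-fold fall.

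Pdha1, the E1α subunit that carries the phosphorylated serines (A_55_P2835362, chromosome X, 156560573 to 156560632), was at 14.78, 15.05 and 15.19 in total ChREBP WT. In total ChREBP KO the arrays were at 13.52, 13.56, 13.64, 13.66 and 13.69. The nearest arrays of the groups were 1.09 log2 units apart, and the difference was -1.43 (SE 0.10, limma adjusted p 5.81e-09), a 2.69-fold fall. Pdhb, the E1β subunit (A_55_P1953972, chromosome 14, 8998548 to 8998607), was at 16.39, 16.58 and 16.78 in total ChREBP WT and at 15.25, 15.33, 15.41, 15.45 and 15.49 in total ChREBP KO. It fell without overlap, with a difference of -1.22 (SE 0.10, limma adjusted p 1.33e-08).

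Dlat, the E2 core protein that carries the lipoyl arm (A_51_P265106, chromosome 9, 50442953 to 50443012), was at 12.05, 12.21 and 12.42 in total ChREBP WT. The total ChREBP KO arrays were at 11.29, 11.30, 11.43, 11.59 and 11.70. The KO arrays lay below the WT arrays by at least 0.34, and limma gave -0.77 (SE 0.09, limma adjusted p 2.89e-06), a 1.71-fold fall.

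**Figure D1:**
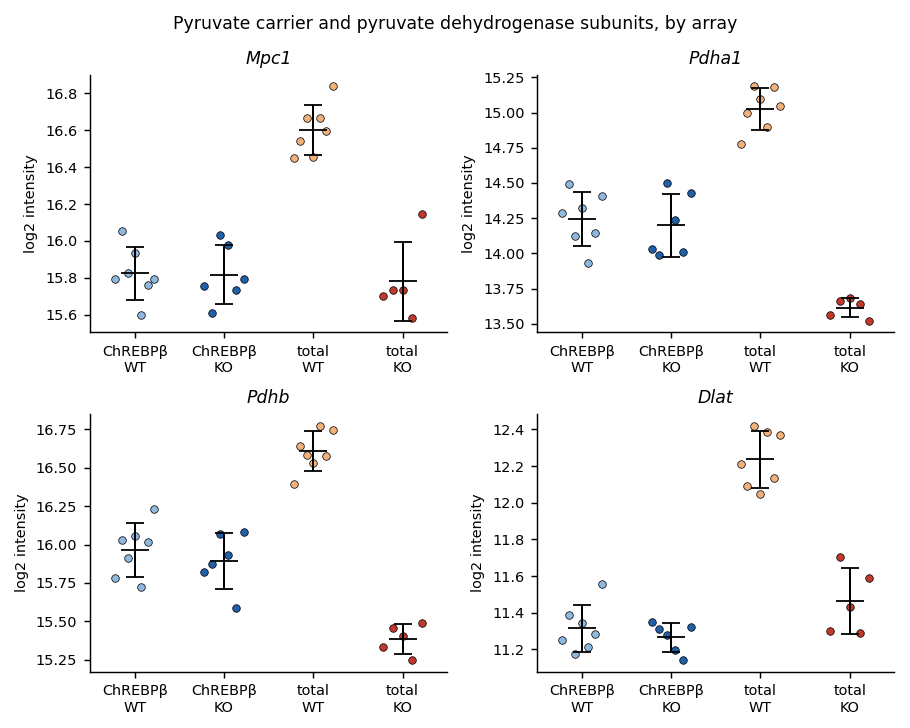
Log2 intensity (vertical axis, each panel with its own range) of the pyruvate carrier subunit Mpc1 and of the pyruvate dehydrogenase subunits Pdha1, Pdhb and Dlat on each array (points) of the 4 groups, with the group mean and SD (bars). All 5 total ChREBP KO arrays lie below all 7 total ChREBP WT arrays in each panel, and the ChREBPβ WT and ChREBPβ KO arrays overlap, below total ChREBP WT.

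Pdk1 (A_55_P2826334, chromosome 2, 71739926 to 71739985), the kinase known as a target of hypoxia signalling, had the largest change of the 10 genes. Its level was 12.66, 12.88 and 12.99 in total ChREBP WT. In total ChREBP KO the arrays were at 10.48, 10.58, 10.59, 10.61 and 10.66, and 2.00 log2 units separated the nearest arrays. The difference was -2.29 (SE 0.14, limma adjusted p 4.02e-10), a 4.88-fold fall.

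Pdk4 (A_51_P350453, chromosome 6, 5433441 to 5433500), the starvation-linked kinase, moved the other way. It was at 9.94, 10.42 and 10.56 in total ChREBP WT and at 10.79, 10.84, 11.15, 11.17 and 11.33 in total ChREBP KO. All KO arrays lay above all WT arrays, by at least 0.23, and the difference was 0.70 (SE 0.12, limma adjusted p 5.25e-04), a 1.62-fold rise. The log2 ratio of Pdk4 to Pdk1 within an array therefore shifted by 2.97 between total ChREBP WT (-3.05 to -2.12) and total ChREBP KO (0.18 to 0.85). The ratio of Pdk1 to Pdha1, the kinase to its substrate, shifted by -0.86, from a range of -2.51 to -1.79 to a range of -3.21 to -2.93. These shifts restate the differences above and are no separate evidence.

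Pdk2, the broadly expressed kinase (A_55_P2011802, chromosome 11, 94887669 to 94887728), was at 11.01, 11.23 and 11.83 in total ChREBP WT and at 11.23 to 11.45 in total ChREBP KO. Its difference of -0.02 had a 95% confidence interval of -0.27 to 0.22. Pdk3, a further isoform of the kinase (A_51_P392293, chromosome X, 91009951 to 91010010), was at 8.58, 8.70 and 8.98 in total ChREBP WT and at 8.36 to 9.09 in total ChREBP KO, with a difference of -0.02 (interval -0.25 to 0.22). The arrays of the groups overlapped for both kinases, and the intervals leave room for changes up to about those sizes.

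By their brightest probes, the phosphatases were not called. Pdp1, the calcium-stimulated catalytic phosphatase (A_55_P2269497, chromosome 4, 11885487 to 11885546), was at 9.15, 9.37 and 9.51 in total ChREBP WT and at 9.04 to 9.59 in total ChREBP KO, a difference of -0.04 (interval -0.30 to 0.23). Pdp2, the other catalytic phosphatase, gave different answers on its probes. The brightest probe (A_55_P2788443, chromosome 8, 107119568 to 107119627) gave 0.09 (interval -0.15 to 0.33), but from base 25 of its 60 bases it holds the run GTGTGTGTGTGTGTGTGTGT, and runs of 20 of its bases recur on the probes of 48 other genes, so its signal cannot be assigned to Pdp2 alone. The other Pdp2 probe (A_66_P111285, chromosome 8, 107120490 to 107120549), with no such match, was at 11.30, 11.45 and 11.57 in total ChREBP WT and at 10.83 to 11.21 in total ChREBP KO, a difference of -0.34 (SE 0.10, limma adjusted p 0.0311), with no overlap. No probe of the other 9 genes shared such a run with a probe of another gene.

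**Figure D2:**
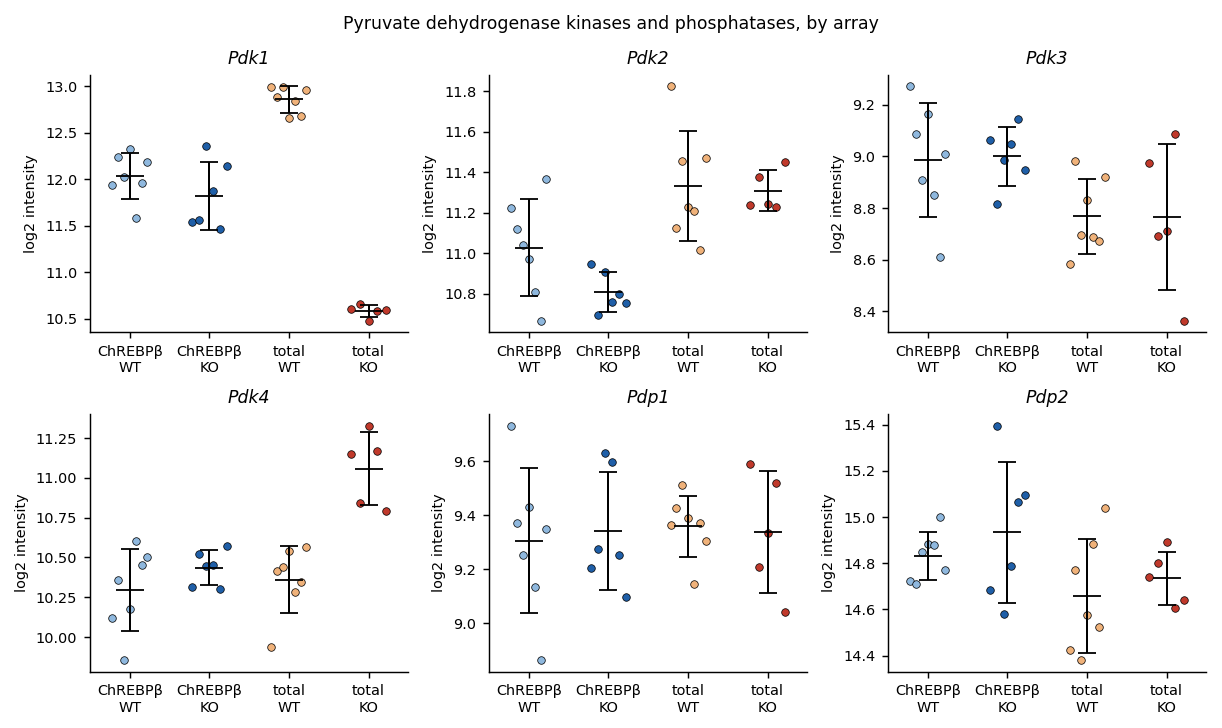
Log2 intensity (vertical axis, each panel with its own range) of the 4 pyruvate dehydrogenase kinases and the 2 phosphatases on each array (points) of the 4 groups, with the group mean and SD (bars). Pdk1 is at 10.48 to 10.66 in total ChREBP KO, below every other array, Pdk4 is at 10.79 to 11.33, above every other array, and the groups overlap in the other panels within each line. The Pdp2 panel shows its bright probe, which holds runs shared with probes of other genes.

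The count of 6 calls was the same in all alternatives run and without any 1 array. Every group was represented in each of the 4 wash batches. Within a batch, the difference was -2.41 to -2.17 for Pdk1, -1.52 to -1.31 for Pdha1 and -1.24 to -1.19 for Pdhb. It was -0.94 to -0.49 for Mpc1, -0.99 to -0.66 for Dlat and 0.48 to 0.91 for Pdk4. The same sign in every batch follows from the separation of KO and WT arrays for these 6 genes, so it is no separate evidence. Batches 2, 3 and 4 held only 1 total ChREBP KO array each. Liver markers were lower in total ChREBP KO than in total ChREBP WT (mean 7.72 against 9.64, with 2 of 14 genes called lower and 1 higher). With the liver, kidney and epididymis scores as covariates the differences were -2.13, -1.44, -1.25, -0.82, -0.80 and 0.54 in the same order, all 6 still called. For brown fat markers, 1 of 10 was called lower (Kcnk3) and 1 higher (Dio2) in this comparison. Of 12 adipocyte markers, 3 were called higher and 1 lower. Their mean was 16.21 in total ChREBP KO and 16.08 in total ChREBP WT. The part of the brown fat and adipocyte markers in the result was not tested. In a bulk tissue, fewer cells of a type and less RNA per cell cannot be told apart.

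Further probes of the same genes mostly moved alike, and 23 probes of the 10 genes were kept. For Pdhb, the other probes gave -1.52 and -1.41. For Mpc1 they gave -0.96 and -1.62, and for Dlat -0.85. The other Pdha1 probe, upstream of the first (A_55_P2717707, chromosome X, 156574846 to 156574905), with raw intensities of 111.5 to 242, gave -0.55 (SE 0.12, limma adjusted p 0.0062), with overlap of the arrays. The sign was thus the same on every probe of these genes, and the size was not.

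Pdk1 had 5 probes, and they differed in size. The 2 probes farthest downstream (between 71739688 and 71739985 on chromosome 2) gave -2.34 and -2.29. Of the 3 dimmer probes upstream, A_55_P2590803 gave -1.40 (SE 0.10) and A_55_P2590813 gave -0.75 (SE 0.23), both called. A_55_P2907580 (71713523 to 71713582, raw intensity 168 to 289) gave -0.13 (SE 0.08, limma adjusted p 0.409) and was not called. With the mean over all 5 probes, Pdk1 differed by -1.38, still called. Pdk2 and Pdk4 had 1 probe each, and the second probes of Pdk3 (-0.10) and Pdp1 (-0.03) were not called.

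**Figure D3:**
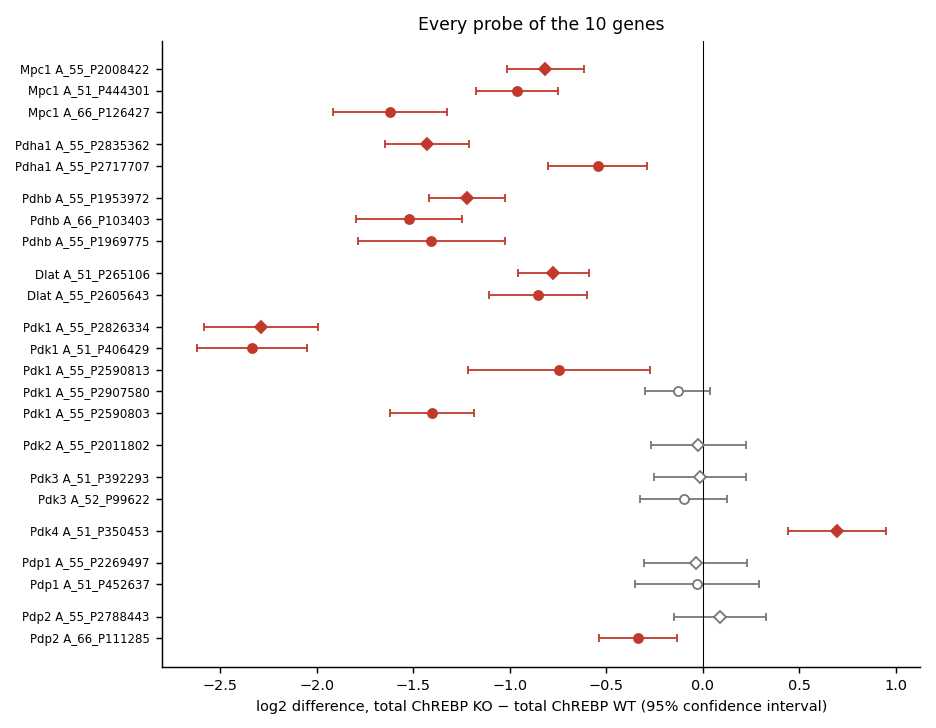
Log2 difference between total ChREBP KO and total ChREBP WT (horizontal axis) with its 95% confidence interval for each of the 23 probes of the 10 genes, diamonds for the probe that represents a gene and circles for its other probes, filled where the adjusted p was under 0.05. The Pdk1 probes run from -2.34 to -0.13, and the Pdp2 probes fall on opposite sides of 0.

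In ChREBPβ KO none of the 10 genes was called, and the arrays of KO and WT overlapped for the 6 genes that moved in total ChREBP KO. Over all genes, 0.00772% were called in this comparison, which is 2 genes. Before adjustment, limma p-values under 0.05 were found for 2515 genes, among them Pdk2 alone of the 10 by their brightest probes, with -0.23 (SE 0.11, unadjusted limma p 0.0498, adjusted p 0.542). The groups overlapped for all 10 genes, and for all but 0.0695% of all genes.

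Mpc1 was at 15.60, 15.80 and 16.06 (lowest, median and highest) in ChREBPβ WT and at 15.61, 15.77 and 16.03 in ChREBPβ KO. Pdha1 was at 13.93, 14.28 and 14.49 in ChREBPβ WT and at 13.99, 14.13 and 14.50 in ChREBPβ KO. Pdhb was at 15.72, 16.02 and 16.23, and at 15.59, 15.90 and 16.08. For each of these genes the ranges overlapped. The differences and their 95% confidence intervals were 0.01 (-0.18 to 0.19) for Mpc1, -0.05 (-0.25 to 0.16) for Pdha1, -0.07 (-0.25 to 0.12) for Pdhb and -0.05 (-0.22 to 0.13) for Dlat. None of these intervals reached the size of the fall in total ChREBP KO. The other Pdhb probes gave larger differences, -0.33 (interval -0.69 to 0.03) and -0.25 (interval -0.51 to 0.01). Those of Mpc1 gave -0.06 and -0.23 (interval -0.51 to 0.05 for the latter). The other Dlat probe gave -0.08 and the other Pdha1 probe -0.01. None of these probes was called.

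Among the kinases, Pdk1 was at 11.58, 12.03 and 12.32 in ChREBPβ WT and at 11.47, 11.71 and 12.36 in ChREBPβ KO. Pdk4 was at 9.86, 10.36 and 10.60 in ChREBPβ WT and at 10.30, 10.45 and 10.57 in ChREBPβ KO. The arrays of the groups lay over each other for both genes. The differences were -0.22 for Pdk1 (interval -0.50 to 0.06) and 0.13 for Pdk4 (interval -0.11 to 0.37), which have the signs of the differences in total ChREBP KO but did not pass the test. Those of Pdk3 and Pdp1 were -0.00 and 0.03. For Pdp2, the bright probe gave 0.10, and the probe without shared runs gave -0.22 (SE 0.09, unadjusted limma p 0.0239, adjusted p 0.463). The 14 liver markers were lower on average in ChREBPβ KO than in ChREBPβ WT (12.93 against 14.16), with none called, and with the organ scores as covariates again 0 of the 10 genes were called.

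The difference between the effects was tested directly. For 5 genes the effects of the deletions differed, the total ChREBP effect minus the ChREBPβ effect being -2.07 for Pdk1 (SE 0.19, limma adjusted p 8.89e-07), -1.38 for Pdha1 (SE 0.14, adjusted p 3.03e-06), -1.16 for Pdhb (SE 0.13, adjusted p 9.48e-06), -0.82 for Mpc1 (SE 0.13, adjusted p 4.54e-04) and -0.72 for Dlat (SE 0.12, adjusted p 7.88e-04). Over all genes, 3.49% were called for this difference. For the same 5 genes the wild types of the lines differed too, by 0.64 to 0.92, with 0.78 for Mpc1 and 0.92 for Dlat. The line of mice and the deletion cannot be told apart in this difference. Pdk4 differed by 0.57 (SE 0.17, limma adjusted p 0.0711) and was not called. Its effects in the lines are therefore not shown to differ. With array quality weights, and without ChREBPβ WT replicate 3, the Pdk4 difference was called, at 0.56 (limma adjusted p 0.0234) and 0.63 (adjusted p 0.0249).

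**Figure D4:**
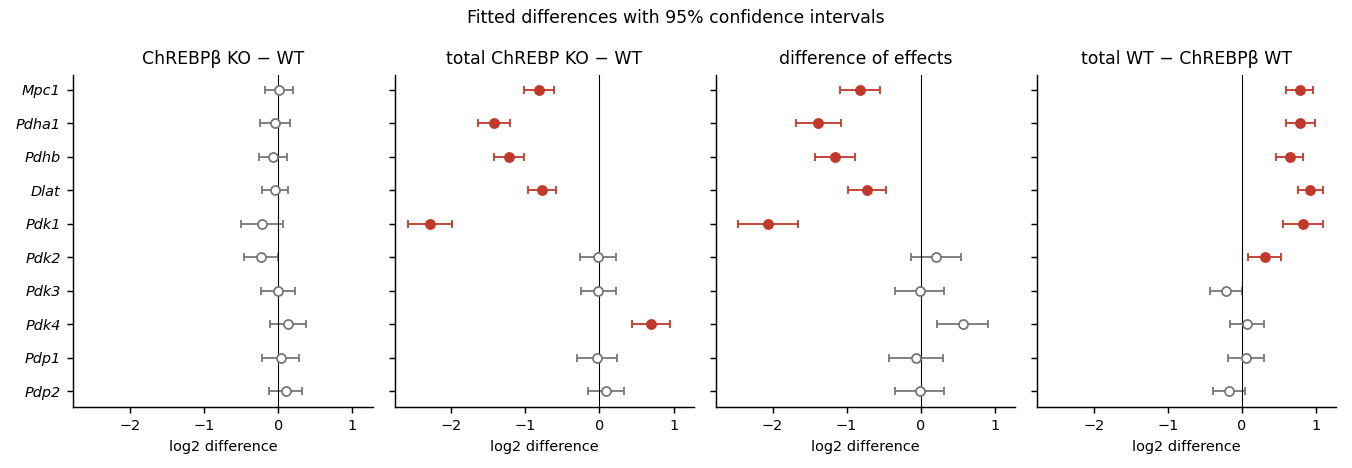
Fitted log2 difference (horizontal axis) with its 95% confidence interval for the 10 genes for the effect of the ChREBPβ deletion, that of the total ChREBP deletion, the difference of these effects, and total ChREBP WT against ChREBPβ WT, filled where the adjusted p was under 0.05. No gene is called in the first panel, 6 in the second (Pdk1 at -2.29, Pdk4 at 0.70), 5 in the third and 6 in the fourth.

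The wild types of the lines also differed. Total ChREBP WT was above ChREBPβ WT for 6 of the 10 genes by their brightest probes, with differences of 0.92 for Dlat (SE 0.08, limma adjusted p 4.90e-07), 0.82 for Pdk1 (SE 0.13, adjusted p 1.57e-04), 0.78 for Pdha1 (SE 0.09, adjusted p 1.53e-05), 0.78 for Mpc1 (SE 0.09, adjusted p 6.85e-06), 0.64 for Pdhb (SE 0.09, adjusted p 3.84e-05) and 0.30 for Pdk2 (SE 0.11, adjusted p 0.0452). All but Pdk2 did so without overlap of the arrays. In this comparison 22.2% of all genes were called, 13.4% higher and 8.71% lower, and 5.53% did not overlap. Pdp2 was not called by its bright probe, at -0.17, and was higher by the probe without shared runs, at 0.41 (SE 0.09, limma adjusted p 0.0019), without overlap. Pdk4 differed by 0.07 (interval -0.16 to 0.29). These are thus genes of a comparison in which a large share of all genes differed.

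Markers of other organs moved with this comparison. Of the 14 liver markers, 13 were called lower in the wild types of the total ChREBP line. Their mean was 9.64 there and 14.16 in ChREBPβ WT. Of 10 brown fat markers, 6 were called higher, with means of 9.19 and 8.58 in that order. Of 9 kidney markers kept, 6 were called lower, with means of 6.17 and 7.36. The epididymis score held only 5 of 12 listed markers, 1 of them called higher, with means of 7.74 and 6.88. With the 3 organ scores as covariates, the differences were 0.90 for Dlat, 0.95 for Pdk1, 0.76 for Pdha1, 0.84 for Mpc1, 0.85 for Pdhb and -0.31 for Pdk2, with adjusted p of 0.197 to 0.689, and 0 of the 10 genes were called. The line of mice and the organ markers cannot be told apart here. The Pdk2 call was also lost without the filter on dim probes (limma adjusted p 0.0590), with only the 2 groups in the fit (adjusted p 0.110), and in 13 of the 25 fits that left out 1 array, over which the difference was 0.23 to 0.36.

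Across the 4 groups and by their brightest probes, the order of the levels was the same for Pdha1, Pdhb and Pdk1. Total ChREBP WT was on top, ChREBPβ WT and ChREBPβ KO came next with overlapping arrays, and total ChREBP KO was lowest without overlap. For Mpc1, total ChREBP KO overlapped with ChREBPβ KO, with means of 15.78 and 15.82. For Dlat, total ChREBP KO (mean 11.46) lay 0.15 above ChREBPβ WT (11.32), with overlap. By their brightest probes, the carrier and the E2 core thus had levels in total ChREBP KO like those of the ChREBPβ line. Pdk1 was 1.24 below ChREBPβ KO. On the other probes of Pdhb and Pdha1, total ChREBP KO overlapped with ChREBPβ KO too. The median of the Pdhb probe A_55_P1969775 was 9.01 in total ChREBP KO and 8.76 in ChREBPβ KO. Of the other Pdk1 probes, A_51_P406429 and A_55_P2590803 kept the order without overlap, and A_55_P2590813 and A_55_P2907580 did not. For Pdk4, total ChREBP KO stood 0.62 above ChREBPβ KO, and the other groups overlapped. No neighbours in the order were apart for Pdk2, Pdk3, Pdp1 and the bright Pdp2 probe.

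Some of the genes varied together from array to array. After the group means were taken out, the correlation over the 25 arrays was highest for Pdk3 and Pdp1, at 0.70. It was 0.69 for Pdha1 and Pdk1, 0.65 for Pdhb and Pdk1, 0.61 for Pdhb and Dlat and 0.58 for Pdhb and Mpc1. It was -0.10 for Pdk1 and Pdk4 and -0.42 for Pdk2 and Pdk4. The lowest, at -0.46, was for Pdp1 and the bright Pdp2 probe, whose signal cannot be assigned to Pdp2 alone. These are descriptions, since arrays of a wash batch and of a group share their handling. Over all 25 arrays, groups included, the genes most like Pdk1 were Acly (r = 0.98), Elovl6 (0.98) and Acaca (0.98). Those most like Pdha1 were Cnst, Gpd2 and Gpd1 (0.96 each), and those most like Pdhb were Slc25a32 (0.97), Susd1 (0.96) and Slc9a5 (0.96). With the group means taken out, r was 0.77, 0.69 and 0.65 for Pdk1 and 0.72, 0.65 and 0.56 for Pdha1. For Pdhb it was 0.71, 0.68 and 0.75, each in the order named.

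Genes that work beside the complex were taken as lists. Their counts in total ChREBP KO stand beside 5.74% of all genes called higher and 3.62% called lower. Of 11 partner genes (E3, the E3-binding protein, the second carrier subunit and genes of lipoylation and cofactor supply), 3 fell in total ChREBP KO, with a median of -0.03. Among them were Mpc2, the carrier's other subunit, at -0.60 (SE 0.10, limma adjusted p 2.33e-04) and Pdhx, the E3-binding protein, at -0.27 (SE 0.07). Pdpr, the regulatory subunit of the phosphatase, differed by 0.21 (limma adjusted p 0.134) and was not called, and Dld, the E3 enzyme shared with related complexes, differed by 0.01 (limma adjusted p 0.987). Of 6 genes of the related branched-chain and 2-oxoadipate dehydrogenases and their regulators, Bckdhb and Dbt rose, by 0.42 and 0.34, and none fell.

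Upstream of the complex, 5 of 13 genes of pyruvate supply and its other fates fell and 2 rose, with a median of -0.20. Of all genes, 3.62% fell and 5.74% rose in this comparison. Pkm, which makes pyruvate, fell by 1.02 on the log2 scale, Ldha, which interconverts it with lactate, by 0.56, Pcx, which carboxylates it, by 0.81, and Me1, which makes it from malate, by 1.05. Gpt2, an alanine aminotransferase, rose by 0.76, and Me2, a mitochondrial malic enzyme, by 0.28, both named for the small count after their values were seen. Downstream, 5 of 6 genes of citrate export and acetyl-CoA use fell, with a median of -1.27: Acaca by 1.91, Acly by 1.67, Slc25a1, the citrate carrier, by 1.32, Acacb by 1.23 and Fasn by 0.36. Of 17 genes of citrate synthesis and the tricarboxylic acid cycle, which lie between these steps, none was called lower and 3 were called higher (Aco1 by 0.36, Sdhb by 0.23 and Dlst by 0.19) with a median of 0.06.

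Genes that bear on the kinases were mixed. A list of 13 genes held regulators of Pdk transcription and genes of insulin signalling. Of these, Foxo1, which insulin signalling keeps out of the nucleus, rose by 0.60 (SE 0.10, limma adjusted p 2.21e-04). Hif1a rose by 0.37 and Ppargc1b fell by 0.63. Irs2 differed by 0.57 (limma adjusted p 0.0632) and was not called. Of 17 genes of fatty acid oxidation, Cpt1a (0.90), Cpt2 (0.48) and Acadl (0.34) rose, and Ucp3 (-0.38) and Hadha (-0.27) fell. The median was 0.12 for the former list and -0.11 for the latter, against 0.02 over all genes, of which 5.74% rose and 3.62% fell. In ChREBPβ KO, limma called 0 genes of these 7 lists, and 0 to 4 genes of a list had an unadjusted p under 0.05. Of all 25908 genes, 2 were called and 2515 had such an unadjusted p.

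**Figure D5:**
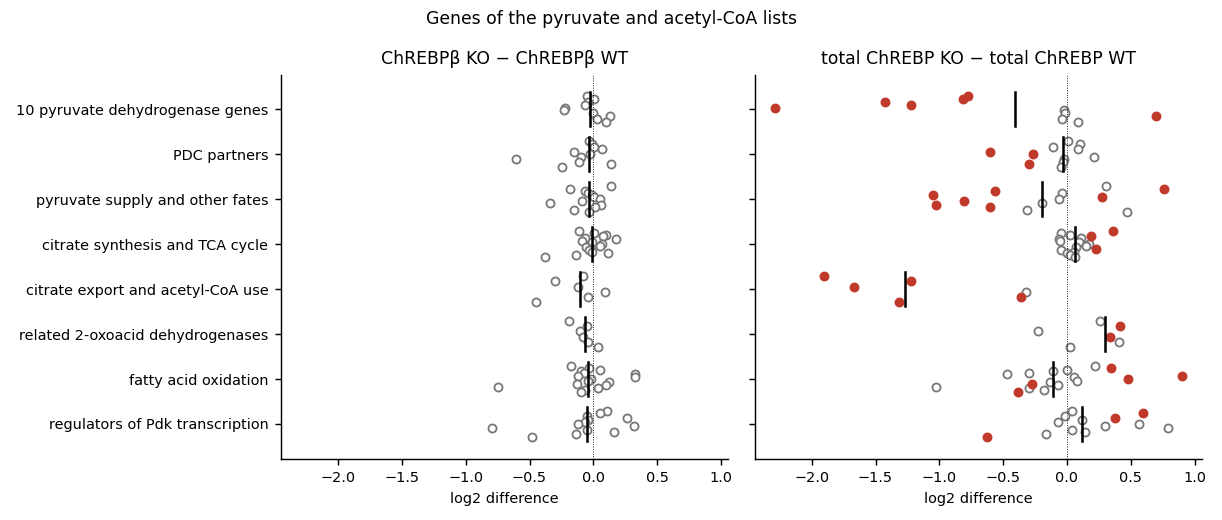
Log2 difference (horizontal axis) of each gene of 8 lists around pyruvate and acetyl-CoA in ChREBPβ KO (left) and total ChREBP KO (right) against the wild type of the line, filled where the adjusted p was under 0.05, with the median of each list as a black bar. In the right panel the median is -0.40 for the 10 pyruvate dehydrogenase genes, -1.27 for citrate export and acetyl-CoA use and 0.06 for the tricarboxylic acid cycle, and no gene is filled in the left panel.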

How the data were processed

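RNA of pgWAT from 25 mice was measured on single-colour Agilent arrays. The scanner files hold intensities that the authors extracted with Agilent Feature Extraction 10.10.1.1, per the file headers and the submitters' notes. The deposited value table holds log2 values, for which the authors read median intensities with limma (version not given), filtered spots on their flags, quantile normalised with preprocessCore and took the median of replicated probes. It served as an alternative. The main values were log2 median intensities, quantile normalised. A spot was kept where its flags were good on 21 of the 25 arrays or on 6, 5, 6 or 4 arrays of a group (order as in the text), and replicated spots were merged by their median. This left 39619 probes of 25908 genes. limma 3.58.1 (R 4.3.3) fitted the 4 groups with wash batch as a term. The script was tested on simulated data. Spot positions are those of the array design (mm9), with no annotation of that build used here, so exons and UTRs are not given. With 1 array per mouse, the number of arrays limits the precision.

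The members and lists were chosen with earlier results of these data known. All 10 members were named, and from each other list up to 4 genes with the lowest adjusted p in the total ChREBP comparison, beside genes that define a list (Dld) or complete a small count. One gene of a list is not reported here by name. For the 3 members with the lowest adjusted p, the 3 genes with the highest Pearson correlation were named. The alternatives and their effects are given at the end.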

Additional observations from a re-analysis of the deposited data

Results flagged for a closer look

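Mpc1 in total ChREBP KO replicate 7 was at a log2 level of 16.14, apart from the other 4 arrays of its group, of which the nearest was at 15.74 and the lowest at 15.58. This was 1 of 40 groups of values examined, and chance marks about 1 in 20. It lay below all total ChREBP WT arrays.

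The effects of the deletions differed between the lines for 5 genes, tested as the difference of effects in limma. The values were -2.07 for Pdk1, -1.38 for Pdha1, -1.16 for Pdhb, -0.82 for Mpc1 and -0.72 for Dlat, each with the larger fall in total ChREBP KO. The wild types of the lines differed for these genes as well, so line and deletion cannot be told apart here.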

How the results depend on the processing

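In the total ChREBP comparison, 6 genes were called in all 11 alternatives and in all 25 fits that left out 1 array, and in the ChREBPβ comparison 0 were called in all of them. With the 3 organ scores as covariates, the count for total ChREBP WT against ChREBPβ WT went from 6 to 0. Over the alternatives, the total ChREBP difference was -2.31 to -1.38 for Pdk1, -1.48 to -0.99 for Pdha1 and 0.54 to 0.74 for Pdk4. A pairing of the samples by replicate number was not shown, and the labels do not say what a number shares. The correlations of same-numbered arrays ran from -0.434 to 0.381 over 5 pairs of the ChREBPβ line and from -0.231 to 0.144 over 4 pairs of the total line, and the replicate block changed none of these counts (6 and 0).

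Of 430 values of single genes under the alternatives, 28 changed sign, 1 of them called before. In ChREBPβ KO, Mpc1 was -0.0256 with the deposited values, -0.0655 with the processed signal, -0.0079 without the wash term, 0 with the replicate block, -0.0043 with only the 2 groups and -0.095 as the mean over probes. Pdk3 was 0.0211 with the processed signal, 0.0143 without the wash term, 0.0025 with slide as a block, 0.0089 with the replicate block, 0.0594 with array weights, 0.0121 with only the 2 groups and 0.0033 as the mean over probes. As the mean over probes, Pdp1 was -0.0034 and Pdp2 -0.061, and with organ scores Pdp1 was -0.1421. In total ChREBP KO, array weights gave 0.0197 for Pdk2 and 0.0102 for Pdp1, organ scores 0.0788 for Pdk2 and -0.0713 for Pdp2, and the mean over probes -0.1243 for Pdp2. For the difference of effects, Pdp2 was 0.0178 with the replicate block and 0.0405 with array weights, and Pdp1 0.1319 with organ scores. Between the wild types, organ scores gave -0.3078 for Pdk2, -0.6474 for Pdp1 and 0.3299 for Pdp2, and the mean over probes 0.1202 for Pdp2. The causes were not tested.

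Of 1000 values with 1 array left out, 55 changed sign, none called before. In ChREBPβ KO these lay within -0.1074 to 0.0151 for Pdha1, -0.0482 to 0.0620 for Pdk3, -0.0530 to 0.1088 for Pdp1 and -0.0409 to 0.0659 for Mpc1. In total ChREBP KO they lay within -0.0981 to 0.0477 for Pdk2, -0.0885 to 0.0801 for Pdk3 and -0.1321 to 0.0459 for Pdp1. For the difference of effects they lay within -0.0884 to 0.0728 for Pdk3, -0.1655 to 0.0109 for Pdp1 and -0.0684 to 0.0745 for Pdp2, and between the wild types within -0.0057 to 0.1560 for Pdk4 and -0.0230 to 0.1443 for Pdp1. The Pdk2 call between the wild types was lost without any 1 of ChREBPβ WT replicates 3, 4, 6 and 7, ChREBPβ KO replicates 5 and 6, total ChREBP WT replicates 2, 4, 6 and 8 and total ChREBP KO replicates 2, 3 and 4.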
